A study of Mus musculus with 4 samples.

Results

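The S100 genes encode small calcium-binding proteins, and 10 of them were followed in liver RNA, each represented by every probe set that the platform annotation assigns to it. These are S100a1, S100a4, S100a6, S100a8, S100a9, S100a10, S100a11, S100a13, S100a14 and S100a16, measured by 14 probe sets of 45101 on the array, or 10 of 18829 annotated genes. S100 proteins bind calcium through EF hands, form dimers and then bind other proteins inside the cell. Some are also released from stressed or dying cells and act on receptors of innate immunity, and S100a8 and S100a9, which together form calprotectin, are abundant in the cytosol of neutrophils. S100a6, S100a10, S100a11, S100a14 and S100a16 are taken here as the epithelial members, although most of them are also made by other cells.

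Livers of 4 genotypes were compared on Affymetrix mouse expression arrays, with 1 array for each genotype and RNA of 3 non-fasted mice, 5 weeks of age and labelled male, combined in equal amounts on each array. DS6 mice carried a floxed Rps6 gene, which encodes ribosomal protein S6, together with Alb-Cre, DS6 Myc mice carried these and an Alb-c-Myc transgene, Myc mice carried the Alb-c-Myc transgene and were not Rps6-deficient, and WT mice were floxed for Rps6 without Cre. All were of a mixed hybrid strain. Alb-Cre deletes in hepatoblasts and their descendants, the hepatocytes and bile duct cells, so that blood-derived and stromal cells of DS6 liver kept Rps6, and the study describes the deletion as incomplete and regional. Values are RMA expression values on a log2 scale per probe set, with array medians of 6.85 to 6.88, and a value under 6 is called dim because signal above background was not shown there. With 1 array per genotype there is no replicate error and no test between genotypes. The only measure of spread at hand is that between probe sets of 1 gene, a standard deviation of 0.27 in the log2 ratio of DS6 over WT, 0.20 for DS6 Myc over DS6, 0.24 for DS6 Myc over Myc, 0.29 for DS6 Myc over WT and 0.14 for Myc over WT, and it does not cover differences between mice.

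The deletion was seen in part on these arrays. DS6 was below WT (median log2 ratio -0.29) and DS6 Myc below Myc (median -1.76) on all 9 probe sets that Rps6 shares with the pseudogene Rps6-ps4. The 2 probe sets of Rps6 alone went in opposite directions, with ratios of -0.79 and 1.47 in DS6 over WT and of -2.48 and 2.59 in DS6 Myc over Myc. Whether these probe sets fall in the floxed sequence was not examined. Myc had 11.37 in DS6 Myc, 8.89 in DS6, 11.68 in Myc and 8.33 in WT. The WT array stood apart from the other 3 and went against its label in part. The X-inactivation transcript Xist, abundant only in female cells, had log2 values of 6.33 in DS6 Myc, 5.88 in DS6, 6.29 in Myc and 11.84 in WT. Of the Y-linked RNAs, Eif2s3y had 8.67 in WT and 9.09 in DS6, Kdm5d 7.70 and 8.14, and Uty 7.73 and 7.79, all within 2-fold. The make-up of the WT pool was not tested. Of 7 measured pancreatic genes, 7 were at least 2-fold below WT in DS6 (2.53% of all genes), in DS6 Myc (1.79%) and in Myc (0.361%). The DS6 values of the members, and the counts over gene lists, are therefore also set against the Myc array. Hepatocyte markers were high on all arrays, with Alb between 15.38 and 15.46.

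S100a8 and S100a9 were higher in DS6 liver than in every other genotype. S100a9 had log2 values of 7.76 in DS6 Myc, 13.50 in DS6, 7.50 in Myc and 7.60 in WT by its single probe set. This is 59.8-fold over WT, a log2 ratio of 5.90, and rank 12 from the highest of 45101 probe sets. S100a8 had 7.42 in DS6 Myc, 13 in DS6, 7.02 in Myc and 7.14 in WT. Its log2 ratio was 5.87 (58.4-fold), next in rank at 13, so the 2 calprotectin genes differed between DS6 and WT by nearly the same amount. Over the Myc array the DS6 ratios were 6.0 for S100a9 and 5.99 for S100a8. DS6 Myc liver was 53.5-fold below DS6 liver for S100a9 and 47.9-fold below it for S100a8, with log2 ratios of -5.74 and -5.58. Of their log2 distance from WT in DS6, 2.72% was left in DS6 Myc for S100a9 and 4.88% for S100a8. In such whole-liver RNA, more cells of a type and more RNA per cell cannot be told apart.

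**Figure D1:**
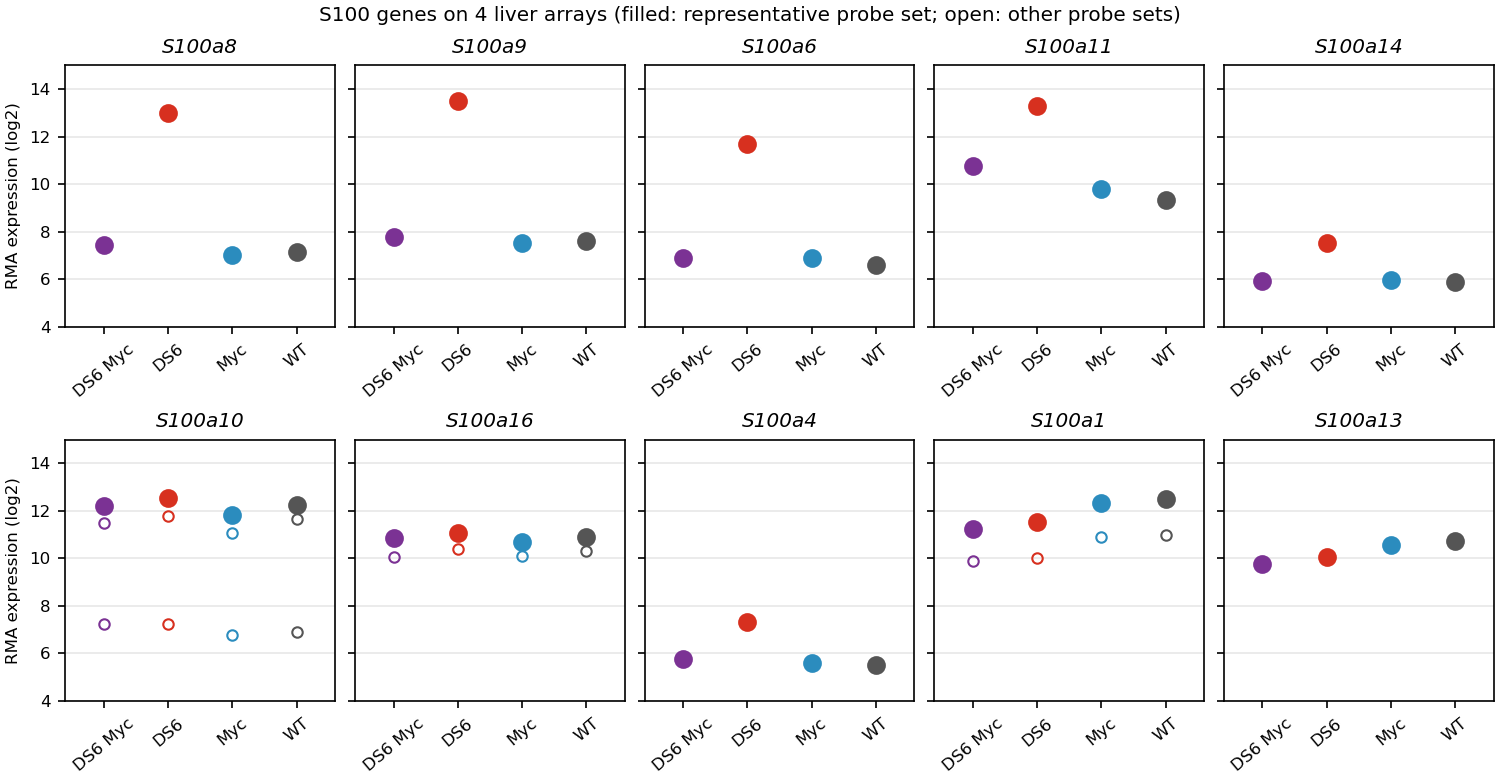
RMA expression (log2, vertical axis) of the 10 S100 genes on the DS6 Myc, DS6, Myc and WT arrays, 1 point per probe set (filled, the probe set with the highest mean; open, the others), 1 array of pooled RNA per genotype. S100a9 stood at 13.50 in DS6 and between 7.50 and 7.76 on the other arrays, while S100a1 was lower on both Rps6-deficient arrays (11.24 in DS6 Myc and 11.51 in DS6) than on the others (12.32 in Myc and 12.48 in WT).

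Of the epithelial members, S100a6, S100a11 and S100a14 were at least 2-fold higher in DS6 than in WT, and S100a10 and S100a16 were within 2-fold. S100a6, or calcyclin, is a partner of the ubiquitin ligase adaptor Cacybp and is found in bile duct and stromal cells. It had 6.89 in DS6 Myc, 11.70 in DS6, 6.90 in Myc and 6.60 in WT. The DS6 value was 34.2-fold above WT (log2 ratio 5.10, rank 24) and the DS6 Myc value was 28.0-fold below DS6. DS6 Myc was thus level with Myc for S100a6, at a log2 ratio of -0.01. S100a11, or calgizzarin, which binds annexin A1, had 10.76 in DS6 Myc, 13.28 in DS6, 9.77 in Myc and 9.32 in WT. Its DS6 over WT ratio was 3.96 (15.5-fold), and 3.50 over Myc. It was the only member at least 2-fold above WT in DS6 Myc (1.44, 2.71-fold), and over Myc the ratio was 0.99. The sole probe set for S100a11 is also annotated to S100a11-ps and Gm12854, so part of its signal may come from these sequences. S100a14, an epithelial member with a role in cell adhesion and migration, had 5.91 in DS6 Myc, 7.52 in DS6, 5.95 in Myc and 5.86 in WT. It was dim on all arrays but DS6, so its ratio of 1.66 (3.15-fold), or 1.57 over Myc, is of uncertain size.

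S100a10 and S100a16 were bright on every array and differed little between genotypes. S100a10, or p11, forms a complex with annexin A2 at the plasma membrane and, unlike other S100 proteins, does not depend on calcium to do so. It had 12.18 in DS6 Myc, 12.54 in DS6, 11.84 in Myc and 12.23 in WT. Its DS6 over WT ratio was 0.31, and 0.13 and 0.33 by its other 2 probe sets. Over Myc the DS6 ratio was 0.70. S100a16, a widely expressed member, had 10.84 in DS6 Myc, 11.05 in DS6, 10.67 in Myc and 10.88 in WT, with DS6 over WT ratios of 0.17 and 0.09 by its 2 probe sets and a DS6 over Myc ratio of 0.38 by the brighter one. All of these DS6 over WT ratios but those of 0.31 and 0.33 were smaller than the spread between probe sets of 1 gene (0.27), while both ratios over Myc were larger than it.

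The other 3 members went in both directions. S100a4, known as Fsp1 and made by leukocytes and fibroblasts, had 5.76 in DS6 Myc, 7.32 in DS6, 5.58 in Myc and 5.50 in WT. It was dim on all arrays but DS6, and its ratio of 1.82 (3.53-fold), or 1.74 over Myc, shares the limit given for S100a14. S100a1, best known from heart muscle, was lower in both Rps6-deficient livers, with 11.24 in DS6 Myc, 11.51 in DS6, 12.32 in Myc and 12.48 in WT by its brighter probe set. The second probe set had 9.91 in DS6 Myc, 10.01 in DS6, 10.88 in Myc and 10.97 in WT. The DS6 over WT ratios were -0.97 and -0.96, and those of DS6 Myc over Myc were -1.08 and -0.97. S100a13, which takes part in the release of Fgf1 and Il1a from cells, had 9.77 in DS6 Myc, 10.04 in DS6, 10.54 in Myc and 10.75 in WT. Its ratios were -0.70 for DS6 over WT and -0.78 for DS6 Myc over Myc. For S100a1 and S100a13 both Rps6-deficient arrays were thus below both Rps6-intact arrays, and DS6 Myc was the lowest of the 4. Such a separation was not particular to them, since S100a4, S100a8, S100a9 and S100a11 were higher on both Rps6-deficient arrays. How many of all genes separate in this way was not counted. With Myc in place of WT, the DS6 ratios of S100a1 and S100a13 were -0.81 and -0.50.

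Promoter windows of the members with the largest increases and of S100a13 are given to show what sequence these starts hold. The RefSeq windows (GRCm38.p6) run from 250 bases before to 50 bases after a gene's start, and 8 of the 10 members had one, S100a10 and S100a14 being the others. They were searched on both strands for TATAAA (the TATA box), TGANTCA (AP-1), TTGCNNAA (a C/EBP core), GGNNTTTCC (the last 9 letters of the classical NF-κB site) and CACGTG (the E-box bound by Myc and Max), none of which overlapped another in these windows, and capitals mark the matches.
S100a8, chr3:90668821-90669120, plus strand: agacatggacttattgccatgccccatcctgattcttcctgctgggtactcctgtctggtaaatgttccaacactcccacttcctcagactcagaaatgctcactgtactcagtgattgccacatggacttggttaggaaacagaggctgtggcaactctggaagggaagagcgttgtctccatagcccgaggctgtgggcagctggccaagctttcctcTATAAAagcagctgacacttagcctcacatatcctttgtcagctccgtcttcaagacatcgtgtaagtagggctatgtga
S100a9, chr3:90695672-90695971, minus strand: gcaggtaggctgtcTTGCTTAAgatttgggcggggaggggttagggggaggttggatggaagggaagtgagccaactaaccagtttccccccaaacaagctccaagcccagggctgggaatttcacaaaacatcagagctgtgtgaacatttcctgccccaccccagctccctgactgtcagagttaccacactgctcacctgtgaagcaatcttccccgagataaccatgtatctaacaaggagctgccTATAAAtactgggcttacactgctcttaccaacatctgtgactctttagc
S100a6, chr3:90612644-90612943, plus strand: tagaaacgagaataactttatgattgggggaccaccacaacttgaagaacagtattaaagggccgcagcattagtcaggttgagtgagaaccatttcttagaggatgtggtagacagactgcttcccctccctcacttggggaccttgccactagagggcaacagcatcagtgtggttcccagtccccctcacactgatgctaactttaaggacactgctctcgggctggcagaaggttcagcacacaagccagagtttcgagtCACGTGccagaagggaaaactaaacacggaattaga
S100a11, chr3:93520246-93520545, plus strand: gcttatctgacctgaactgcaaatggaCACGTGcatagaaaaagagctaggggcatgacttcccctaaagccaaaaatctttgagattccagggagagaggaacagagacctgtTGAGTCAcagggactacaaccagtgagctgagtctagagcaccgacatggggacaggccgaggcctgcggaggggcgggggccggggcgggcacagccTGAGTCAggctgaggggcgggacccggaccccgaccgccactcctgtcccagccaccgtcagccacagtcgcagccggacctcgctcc
S100a13, chr3:90514185-90514484, plus strand: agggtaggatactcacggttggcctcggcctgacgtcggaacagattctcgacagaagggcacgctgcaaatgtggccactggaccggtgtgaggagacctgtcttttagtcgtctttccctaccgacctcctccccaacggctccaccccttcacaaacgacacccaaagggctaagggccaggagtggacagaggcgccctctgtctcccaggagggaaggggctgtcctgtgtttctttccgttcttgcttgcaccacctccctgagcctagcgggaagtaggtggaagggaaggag
The S100a8 window held TATAAA beginning 30 bases before the start, and the S100a4 window, not printed, held it 31 bases before. The S100a9 window held TATAAA at the annotated start itself and TTGCTTAA 236 bases before it. The S100a6 window held CACGTG within its first transcribed bases. The S100a11 window held TGAGTCA 136 and 38 bases before the start and CACGTG 223 bases before it. An S100a16 window, not printed, held the AP-1 letters TGAATCA 192 bases before its start. The other S100a16 window held none of the letters searched. The S100a13 window held none of the letters searched, nor did that of S100a1, which lies head to head with it on the opposite strand and shares 204 of its 300 bases. Among all 32851 windows, 13.6% held TATAAA, 7.81% TGANTCA, 10.8% TTGCNNAA, 5.82% GGNNTTTCC and 7.15% CACGTG. These matches are descriptions of the letters and do not show that a factor was bound.

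Counted over the 10 members, 6 were at least 2-fold higher in DS6 than in WT, where 7.28% of all annotated genes were, and 0 were at least 2-fold lower, where 2.53% were. The 6 were S100a8, S100a9, S100a6, S100a11, S100a4 and S100a14, of which S100a4 and S100a14 were dim on all arrays but DS6. The members had been chosen with earlier results of these data known. Other measured S100 genes, left out of this count, were within 2-fold (S100a3 -0.41, S100a5 -0.53, S100a7l2 -0.06, S100b 0.55 and S100g 0.18). Over the 13 measured S100 genes of the chromosome 3 cluster, the median log2 ratio was 0.31, with the same 6 higher. The median log2 ratio of the members was 1.74, against -0.05 over all genes, and with the Myc array in place of WT the count was again 6 higher and 0 lower (7.05% and 2.22% of all genes) with a median of 1.66. For DS6 Myc over DS6, 6 fell below DS6 by 2-fold or more (4.34% of genes) and 0 were above it (0.797%). The median was -1.58, against 0.05 over all genes. By the probe set with the highest mean all 10 ratios were below 0, between -5.74 and -0.21. The smallest of them were near the spread between probe sets (0.20), and another S100a10 probe set had 0.02. The share of all genes below 0 was not counted. The 2 comparisons share the DS6 array, so a high value on that array enters both.

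Where the transgene was present, little of the difference between Rps6-deficient and Rps6-intact liver was seen for the members that were high in DS6. Between DS6 Myc and Myc, a comparison that shares no array with DS6 over WT, 0 members were at least 2-fold higher (2.04% of genes) and 1, S100a1, was lower by as much (1.37%), and the median was 0.18. Against WT, DS6 Myc had S100a11 higher by at least 2-fold (3.03% of genes) and S100a1 lower (1.79%). In Myc over WT, 0 of 10 were higher (0.42% of genes) or lower (0.361%), and the ratios ran from -0.39 to 0.45. The difference of the 2 Rps6 ratios, DS6 Myc over Myc minus DS6 over WT, was -5.64 for S100a9, -5.46 for S100a8, -5.11 for S100a6 and -2.97 for S100a11. It was -1.69 for S100a14 and -1.64 for S100a4, again from dim values. It was -0.11 for S100a1, -0.07 for S100a13, 0.03 for S100a10 and 0.00 for S100a16. For the first 6 of these genes the Rps6 ratio was thus smaller with the transgene than without it, and for the last 4 it was of about the same size in both, within the spread between probe sets.

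**Figure D2:**
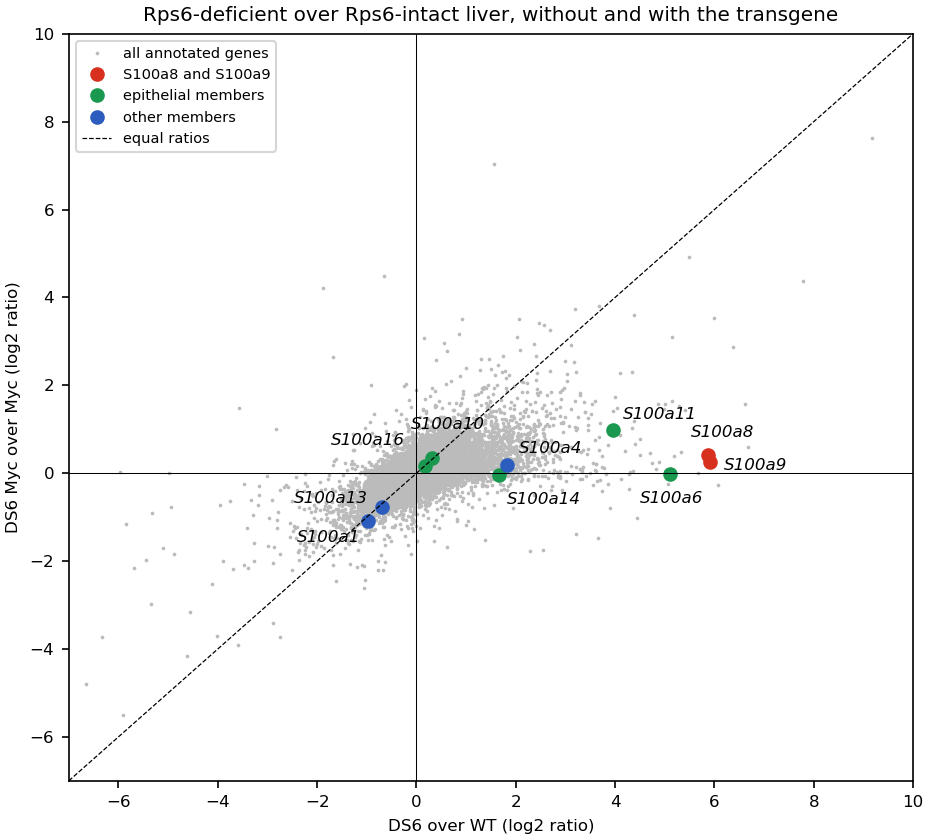
Log2 ratio of DS6 over WT (horizontal axis) against that of DS6 Myc over Myc (vertical axis) for all annotated genes (grey) and the 10 S100 genes (colored by class), 1 array per genotype, with a dashed line where both ratios are equal. S100a8 and S100a9 lie at 5.87 and 5.90 on the horizontal axis and at 0.40 and 0.26 on the vertical axis, and S100a1 and S100a13 lie near the dashed line.

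The ratios of S100a8 and S100a9, called the neutrophil pair here, were close to each other, while those of the epithelial members were spread out. A spread over 2 genes cannot be set against one over 5, and which cells made these RNAs was not tested. In DS6 over WT the mean log2 ratio was 5.88 for S100a8 and S100a9 and 2.24 for the 5 epithelial members, a difference of 3.65, and the epithelial ratios ran from 0.17 to 5.10. The means in DS6 Myc over DS6 were -5.66 and -1.90, a difference of -3.76. For DS6 Myc over Myc they were 0.33 and 0.29, a difference of 0.04. S100a6, at 5.10, lay closer to the neutrophil pair than to the rest of its own class, and S100a10 and S100a16 lay near 0. These are means over genes that share the same arrays, and no test applies.

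Markers of several cell types were higher in DS6 together with the S100 genes. For the counts on lists given here and below, the shares over all genes were 7.28% higher and 2.53% lower in DS6 over WT. They were 7.05% and 2.22% in DS6 over Myc, and 2.04% and 1.37% in DS6 Myc over Myc. Of 13 measured neutrophil markers, 7 were at least 2-fold higher in DS6 than in WT and 0 lower (median 1.88), and their summed signal on a linear scale was 1102.5 in DS6 Myc, 6733 in DS6, 1089.5 in Myc and 1163.5 in WT. Ngp, a protein of neutrophil granules, had a ratio of 3.64, lactoferrin (Ltf) 3.21, Camp 2.28 and Pglyrp1 4.82, the last of uncertain size because Pglyrp1 was dim on all arrays but DS6. Cd177 (1.88) was dim on the same arrays and Mmp8 (2.59) in Myc and WT, so their ratios share this limit. Camp was dim in Myc (5.98) and close to 6 in DS6 Myc (6.06) and WT (6.04). The genes of the primary granule were uneven, with Prtn3 at 2.83, Mpo at 0.48 and Elane at 0.06, and the neutrophil chemokine receptor Cxcr2 had -0.22. Ly6g and Retnlg were not measured, and Ctsg was dim on all arrays. With the transgene (DS6 Myc over Myc) 0 of the 13 were higher or lower (median 0.08), as for S100a8 and S100a9. Against the Myc array 8 of the 13 were higher in DS6, Mmp9 being added, and 0 lower (median 1.92). Of 12 monocyte and macrophage markers, 10 were higher in DS6 than in WT and 0 lower (median 1.79). Marco was at 5.29, Lyz2 at 2.96, Adgre1 at 1.95 and Csf1r at 1.57, while Clec4f (0.71) and Ccr2 (-0.28) were within 2-fold. Their summed signal was 16716.7 in DS6 Myc, 46698.2 in DS6, 9749.7 in Myc and 10776.4 in WT. Over Myc, 2 of these 12 in DS6 Myc, Marco (1.52) and Lyz2 (1.17), were at least 2-fold higher. DS6 over Myc gave 10 higher and 0 lower (median 1.85).

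Most bile duct and stromal markers were higher in DS6, as were S100a6, S100a11 and S100a14 but not S100a10 and S100a16 by 2-fold. Of 10 measured biliary and progenitor markers, 10 were at least 2-fold higher in DS6 than in WT (median 4.20), with Cd24a at 5.40, the keratin gene Krt19 at 5.33, Epcam at 4.10 and the transcription factor gene Sox9 at 2.45. Their summed signal was 2576.6 in DS6 Myc, 25845 in DS6, 1448.5 in Myc and 1427.3 in WT. Over Myc, DS6 Myc had 2 of them at least 2-fold higher, Prom1 (3.59) and Cd24a (1.45), and 1 lower, Krt23 (-1.09), where 0 of the 5 epithelial S100 members were higher or lower. With Myc as the reference for DS6, 9 of the 10 were higher and 0 lower (median 3.99), Krt23 being within 2-fold. Of 11 stellate cell and fibroblast markers, 9 were higher and 0 lower (median 1.90), among them Col1a1 (2.49) and Lum (2.46), while Lrat (-0.01) and Des (0.26), which mark quiescent and contractile stellate cells, were within 2-fold. Their summed signal was 20978.6 in DS6 Myc, 43958 in DS6, 15034.6 in Myc and 14412.3 in WT. In DS6 Myc over Myc 1 was higher, Lum (1.14), and 0 lower, and in DS6 over Myc 9 were higher and 0 lower (median 1.52). Of 8 hepatocyte markers, 0 were higher or lower in DS6 over WT (median -0.11), and their summed signal was 179416.1 in DS6 Myc, 189710.1 in DS6, 192776.1 in Myc and 203223 in WT. In DS6 Myc over Myc 1 was lower, G6pc (-1.54), and 0 higher, and in DS6 over Myc 0 were higher or lower (median -0.05). The part of any of these cell types in the S100 values was not tested.

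**Figure D3:**
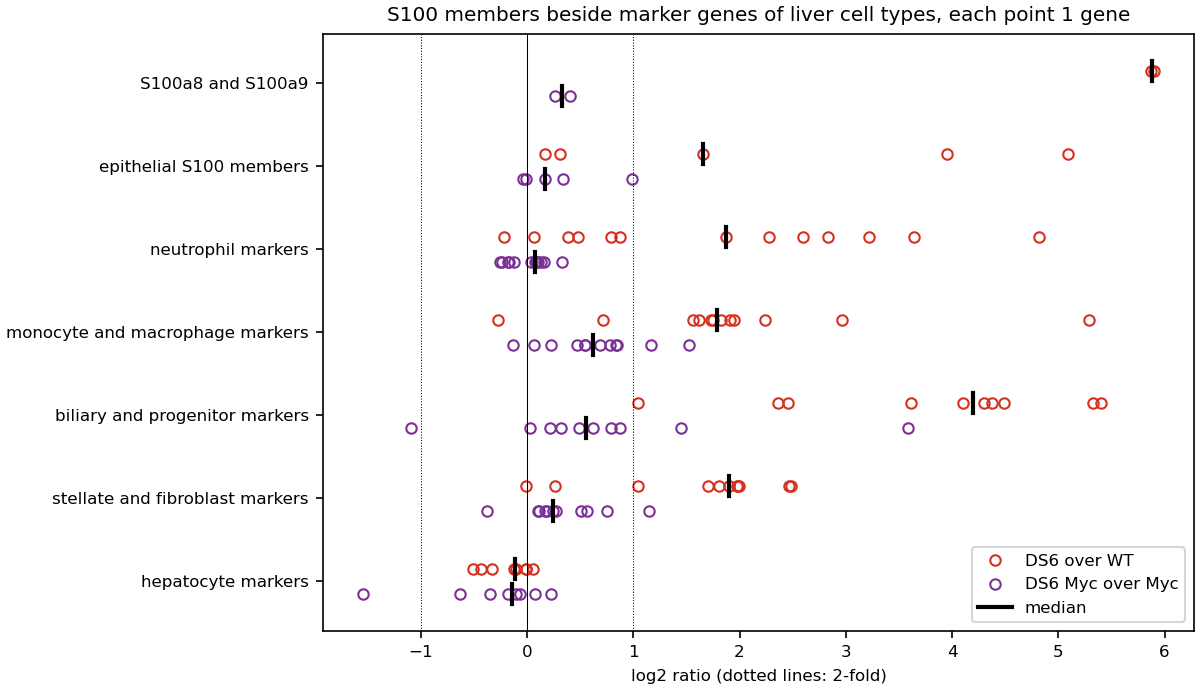
Log2 ratios (horizontal axis) of DS6 over WT (red) and DS6 Myc over Myc (purple) for S100a8 and S100a9, the 5 epithelial S100 members and the markers of 5 cell types, 1 point per gene, with a black bar at each median and dotted lines at 2-fold. The neutrophil markers had medians of 1.88 for DS6 over WT and 0.08 for DS6 Myc over Myc, and the biliary markers 4.20 and 0.56.

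Of 8 receptors of extracellular S100 proteins and their adaptors, 2 were at least 2-fold higher in DS6 than in WT (7.28% of all genes). In the same comparison 0 were lower (2.53%), and the median was 0.39. Against the Myc array 3 were higher, Cd36 being added, and 0 lower (median 0.47). Cd14, the co-receptor of Tlr4 that monocytes and macrophages carry, had 8.71 in DS6 Myc, 12.10 in DS6, 7.12 in Myc and 7.23 in WT, and the adhesion receptor Alcam had a ratio of 1.55. Over Myc, DS6 Myc had ratios of 1.58 for Cd14 and 1.07 for Alcam. The signalling receptors of S100a8 and S100a9 were within 2-fold, Tlr4 at 0.46 with its adaptors Ly96 at 0.13 and Myd88 at 0.35, and the receptor for advanced glycation end products, Ager, at -0.18.

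The intracellular partners were measured beside the S100 protein that each binds. Of 11, 4 were at least 2-fold higher in DS6 than in WT (7.28% of all genes) and 2 lower (2.53%), with a median of 0.46. Against the Myc array 4 were higher (7.05%) and 1 lower (2.22%), Syt1 being within 2-fold (median 0.48). Annexin A2 (Anxa2), the partner of S100a10, had 11.30 in DS6 Myc, 13.06 in DS6, 9.67 in Myc and 9.47 in WT, a DS6 over WT ratio of 3.59 where S100a10 had 0.31. It remained higher in DS6 Myc over Myc (1.63). Ahnak, a scaffold that binds the same complex, had 1.95. Anxa1, the partner of S100a11, had 2.77 in DS6 over WT and 0.07 in DS6 Myc over Myc, where S100a11 had 3.96 and 0.99. The partners of S100a6 were within 2-fold, Cacybp at 0.18, Sugt1 at 0.52, Anxa11 at 0.01 and Anxa6 at 0.06. Myh9, the nonmuscle myosin bound by S100a4, had 1.10. Fgf1 (-1.74) and Syt1 (-1.23), which form a release complex with S100a13, were lower in DS6 as S100a13 was, and Il1a had 0.46.

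Of 10 genes known to regulate S100a8 and S100a9 or to induce them as cytokines, 2 were at least 2-fold higher in DS6 than in WT (7.28% of all genes). In the same comparison 1 was lower (2.53%), and the median was 0.25. Against the Myc array 3 were higher, Il1b being added, and 1 was lower (median 0.23). Spi1, the myeloid transcription factor PU.1, had a ratio of 2.00 and Cebpd 1.07, while Cebpa, which also serves hepatocytes, had -1.11. Stat3 (0.60), Il1b (0.87), Cebpb (-0.13), Tnf (0.02) and Csf3 (-0.11) were within 2-fold of WT, and Il6 was dim on all arrays.

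All 10 members lie on mouse chromosome 3, in a cluster that also holds the small proline-rich and late cornified envelope genes of the epidermis. In the RefSeq gene order (GRCm38.p6), S100a8 and S100a9 were adjacent and S100a6 was the measured gene before them, and these 3 had the highest DS6 over WT ratios in the cluster. S100a5, which lies between S100a4 and S100a6, had 5.64 in DS6 Myc, 5.49 in DS6, 6.04 in Myc and 6.03 in WT, and S100a7l2, the next measured gene after S100a9, was dim on all arrays. S100a1 (-0.97) and S100a13 (-0.70) were neighbours at one end, and negative ratios also occurred elsewhere, among them S100a5 (-0.53), S100a3 (-0.41) and Lce1i (-0.71). S100a11 and S100a10 at the other end differed from each other (3.96 and 0.31). Of 39 measured genes within the cluster that are not S100 genes, 4 were at least 2-fold higher in DS6 than in WT and 0 lower (median -0.16), a share of 10.3% beside the 7.28% of all genes. Counted once per probe set this was 2 of 37, or 5.4%, and both shares were the same over Myc. The 4 were Sprr1a (3.20) and 3 Sprr2a genes that share 1 probe set (4.12). Of 7 measured genes beside the cluster, 0 were higher or lower (-0.25 to 0.37). The higher values were thus not shared by all genes of the region.

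**Figure D4:**
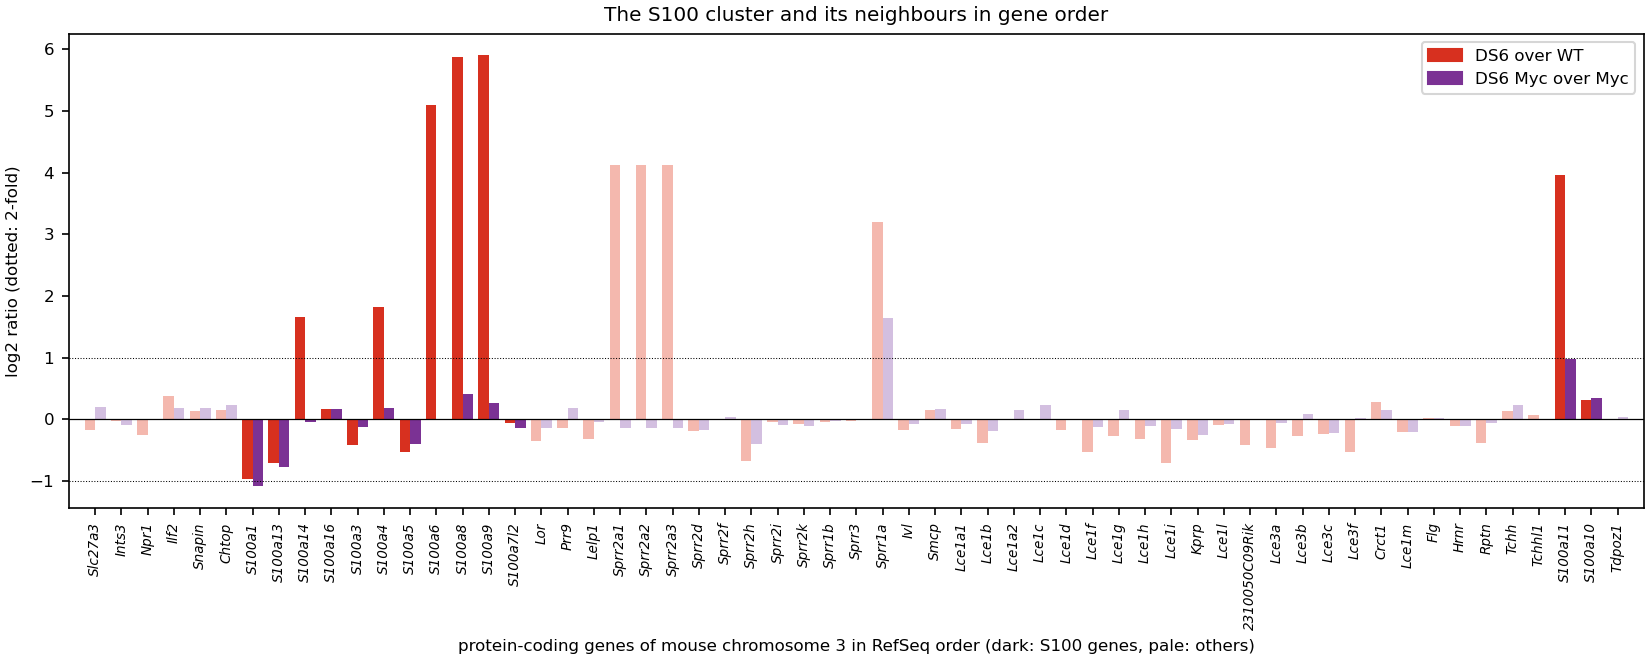
Log2 ratios (vertical axis) of DS6 over WT (red) and DS6 Myc over Myc (purple) for the measured protein-coding genes around the S100 cluster of chromosome 3, in RefSeq order along the horizontal axis, with S100 genes in dark and other genes in pale colors and dotted lines at 2-fold. S100a6, S100a8 and S100a9 reached 5.10, 5.87 and 5.90, the 6 genes before S100a1 stayed within 2-fold, and the bars of the 3 Sprr2a genes come from 1 shared probe set.

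Genes with profiles like those of the S100 pairs were sought among 9867 genes with a value of at least 8 on 1 array. Likeness was the root mean square distance between the 4 values of a gene and those of the pair, each centred on its mean. Nearest to S100a8 and S100a9 were Clca1 (distance 0.16), a secreted protein of mucous epithelia, Sult1e1 (0.25), the estrogen sulfotransferase, Krt19 (0.28), Sptssb (0.30) and A2m (0.37). None of these 5 is on the neutrophil list, and Clca1, Sult1e1 and Sptssb were dim on all arrays but DS6, so that their distances rest in part on values not shown to be above background. Nearest to S100a6 and S100a11 were the tight junction gene Cldn7 (0.11), Anxa13 (0.12), an annexin of epithelia, Saa3 (0.20), Slc25a24 (0.21) and Pmaip1 (0.25), of which Pmaip1 was dim on all arrays but DS6, Anxa13 in Myc and WT, and Slc25a24 in Myc. With 4 arrays, of which 1 differs strongly from the rest, such a distance mainly compares the size of the DS6 value.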

How the data were processed

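Liver RNA of 3 mice per genotype was pooled and hybridized to 1 array each for DS6 Myc, DS6, Myc and WT. The authors normalized the arrays by RMA followed by quantile normalization and deposited log2 expression values for 45101 probe sets. RMA and affy are the tools in the submitters' processing notes, without versions. Sorted values of the arrays differed from those of WT by at most 0.19. The number of arrays, not a read depth, limits the precision.

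Log2 ratios between 2 arrays were computed from these values. Gene names came from the platform annotation (34958 with 1 symbol, 932 with several, 9211 with none), and a gene took its probe set with the highest mean. A size of 2-fold was used for counts, and no test was run. Named were all members, other S100 genes, defining markers, up to 4 genes per list with large DS6 over WT ratios and 5 genes nearest to each of 2 profiles, and further list genes were named after their values had been seen. The members and lists were chosen with earlier results of these data known. Alternatives covered normalization (limma 3.58.1), probe set choice, dim values, fold size and the Myc array as the reference, which was added for the gene lists after the data had been seen. Promoter windows came from RefSeq, GRCm38.p6. The counting and likeness steps were tested on simulated data. Python 3.11.15, numpy 2.4.6, pandas 2.3.3, matplotlib 3.10.9 and R 4.3.3 were used.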

Additional observations from a re-analysis of the deposited data

Results flagged for a closer look

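For 2 members the ratio of Rps6-deficient over Rps6-intact liver had opposite signs with and without the transgene. S100a6 had a log2 ratio of -0.0139 in DS6 Myc over Myc and 5.10 in DS6 over WT. S100a14 had -0.0359 in DS6 Myc over Myc and 1.66 in DS6 over WT, and its values were dim on all arrays but DS6. Both ratios with the transgene were smaller than the spread between probe sets of 1 gene (0.24), so they do not show a lower level. The sign of S100a6 was lost under other normalizations, at 0.0011 after median-centring, 0.0030 after renewed quantile normalization and 0.0092 after cyclic loess. That of S100a14 was kept after median-centring (-0.0209) and renewed quantile normalization (-0.0027) and lost after cyclic loess (0.0296). With 1 array per genotype the difference was not tested.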

How the results depend on the processing

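No paired analysis was possible because each genotype has 1 array, and no replicate could be left out for the same reason. In DS6 over WT, the count of 6 members at least 2-fold higher fell to 4 at 4-fold, at 8-fold or with a value of 8 required on 1 array. In each case S100a4 and S100a14 were lost. The count was 5 without _x_at and _s_at probe sets or with single-symbol probe sets, and 6 under the other alternatives. The members lower numbered 2 at 1.5-fold, and the median was 2.13 with a value of 8 required on 1 array. The difference between S100a8/S100a9 and the epithelial members was 4.08 with single-symbol probe sets, that is, without S100a11. At 8-fold, 3 members were lower in DS6 Myc than in DS6. Between DS6 Myc and Myc, 1 member was higher after median-centring and at 1.5-fold, and the members lower numbered 2 at 1.5-fold and 0 at 4-fold, at 8-fold or when probe sets with _x_at or _s_at names were left out, which also leaves out S100a8. Between DS6 Myc and WT, 0 were higher at 4-fold, at 8-fold or with single-symbol probe sets, and the members lower numbered 2 after renewed quantile normalization, cyclic loess or at 1.5-fold and 0 at 4-fold or 8-fold. Ratios of single members were given the spread between probe sets as their tolerance. The differences of the 2 Rps6 ratios were given the DS6 over WT spread times the square root of 2. Of all these values under the alternatives, 392 stayed within their tolerance. Many of these could not move, because most members have 1 probe set and a filter that keeps it returns the same value. The 392 are therefore no measure of stability. With Myc as the reference S100a6 (4.79), S100a10 (0.70) and S100a11 (3.50) moved by more than the tolerance, and no value past 2-fold changed sign. Precision is limited by the single arrays, and for S100a4 and S100a14 by signal near background.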

Other observations

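Of the S100 genes outside the 10 members, 1 was higher in DS6 Myc alone. S100g, the calcium transport protein calbindin-D9k of gut and kidney, had log2 values of 6.96 in DS6 Myc, 5.55 in DS6, 5.27 in Myc and 5.37 in WT, a ratio of 1.69 in DS6 Myc over Myc. It was dim on the other 3 arrays. S100b, a marker of glia, had 6.41 in DS6 Myc, 6.97 in DS6, 6.19 in Myc and 6.42 in WT by its brighter probe set, and S100a3 was dim throughout. S100a7a and S100z have no probe set in the annotation used here.

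Genes with profiles like that of S100a1 and S100a13 were also sought, a search added after the values had been seen. The nearest were Cflar, an inhibitor of caspase activation at death receptors (distance 0.03), the glucocorticoid-induced gene Tsc22d3 (0.03), Vegfa (0.03), Hcfc1r1 (0.04) and Slc9a3r1 (0.04). Vegfa had 9.28 in DS6 Myc, 9.49 in DS6, 10.23 in Myc and 10.36 in WT. Small distances are easier to reach for a profile with small differences, so these distances and those of the other pairs are not comparable.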
